A study of Mus musculus with 6 samples.

Results

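Kinesins, the motor proteins that walk along or reshape microtubules, and tubulins, the proteins microtubules are built from, were examined in Sertoli cells with and without *Pa1*. Every protein-coding gene in the count table whose symbol starts with *Kif* followed by a digit or c, or with *Tuba*, *Tubb*, *Tubg*, *Tubd* or *Tube* followed by a digit, was taken. This gave 61 of 28262 genes, 42 named as kinesins and 19 as tubulins. The kinesins comprised 13 mitotic kinesins, 17 transport kinesins and 12 others. The others act at cilia or microtubule ends or have further roles, and include *Kif1bp*, which encodes a kinesin-binding protein and not a motor.

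RNA-seq was performed on Sertoli cells isolated from the testes of C57BL/6 mice at 20 days of age and cultured untreated at 34 °C. Per the authors' methods, the culture medium held insulin, epidermal growth factor and transferrin. The control cells carried floxed *Pa1* alleles (Pa1F/F, PA1flox/flox in the labels), and in Amh-pa1-/- cells (PA1-/- in the labels) these alleles were deleted by a Cre recombinase under the *Amh* promoter, which is active in Sertoli cells. Each genotype had 3 libraries, with 13203757 to 16231443 counts on genes. Nothing in the labels says whether the libraries of a genotype came from separate animals or cultures, so the p-values measure the spread between these 6 libraries.

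Sertoli cells are tall epithelial cells whose microtubules run along the long axis of the cell, and motors on these tracks move organelles and developing spermatids. Mitotic kinesins build the spindle, align and separate chromosomes and complete cytokinesis, and their transcripts accumulate mainly in cells that are about to divide. Mouse Sertoli cells divide in fetal and early postnatal life and are regarded as having left the cell cycle by puberty. In bulk RNA, a larger number of cells of a type or stage and more RNA per cell cannot be told apart.

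Many genes of the spindle and of cytokinesis share a promoter element named the cell cycle genes homology region (CHR), often with CCAAT boxes upstream, and promoters are therefore shown first. The 4 promoters below are the 150 bases before the RefSeq start site (build GRCm38.p6, each read 5′ to 3′ on the strand of its gene). Capitals mark a CHR (TTTGAA, or TTCAAA on the other strand) or a CCAAT box (CCAAT, or ATTGG on the other strand). *Kif11* (chr19:37376232-37376381, plus strand) and *Kif15* (chr9:122950931-122951080, plus strand) are mitotic kinesin genes that rose in Amh-pa1-/- cells. *Kif22* (chr7:127042421-127042570, minus strand) is a mitotic kinesin gene that did not pass the test, and *Kif5c* (chr2:49619136-49619285, plus strand) is a transport kinesin gene that rose. They were chosen after the values were seen.

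Kif11: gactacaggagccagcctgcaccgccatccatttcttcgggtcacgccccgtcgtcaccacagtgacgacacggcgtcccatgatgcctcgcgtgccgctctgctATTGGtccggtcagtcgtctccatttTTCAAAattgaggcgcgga
Kif15: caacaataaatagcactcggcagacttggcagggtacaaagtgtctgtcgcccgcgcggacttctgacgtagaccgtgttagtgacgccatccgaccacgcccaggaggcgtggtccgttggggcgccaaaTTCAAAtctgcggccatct
Kif22: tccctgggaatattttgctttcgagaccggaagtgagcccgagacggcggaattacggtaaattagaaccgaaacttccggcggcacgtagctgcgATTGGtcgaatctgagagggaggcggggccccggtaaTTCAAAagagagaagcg
Kif5c: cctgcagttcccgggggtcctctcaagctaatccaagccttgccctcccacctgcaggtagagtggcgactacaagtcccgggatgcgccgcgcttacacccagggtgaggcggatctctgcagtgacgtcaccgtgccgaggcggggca

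The CHR letters began 19 bases before the start in *Kif11* and *Kif15* and 17 bases before it in *Kif22*. *Kif11* and *Kif22* also held a CCAAT box, which began 45 and 54 bases before the start. In *Kif5c* neither set of letters occurred in the printed stretch. Over the window from 250 bases before to 50 bases after the start, 48 of the 61 genes had an entry among the RefSeq promoters. CHR letters were present in 11 of 12 mitotic kinesin genes (91.7%) as compared with 20.2% of all 27025 genes with an entry and 14.1% of those that were tested. They were found in 1 of 11 transport kinesin genes, *Kif1a*, in 2 of 9 genes of the other kinesins, *Kif26b* and *Kif27*, and in 2 of the 16 tubulin genes with an entry, *Tuba3b* and *Tubb4b*. The matches in *Kif1a* and *Kif26b*, both lower in Amh-pa1-/- cells, also lay within 50 bases of the start. The exception among mitotic kinesin genes was *Kif18a*, with neither motif in its window.

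Within 50 bases of the start, a window chosen after the positions were seen, 9 of 12 mitotic kinesin genes held CHR letters, against 5.72% of all genes. CCAAT letters occurred in 8 of 12 mitotic kinesin genes and in 41.1% of all genes. No CHR match overlapped a CCAAT match. Letters of the AP-1 site (TGANTCA, the same on both strands), the element that JUN and FOS proteins bind, were in the windows of 0 of 48 genes. They were in those of 8.97% of all genes and of 6.41% of the genes that were tested. For 9 of the 12 mitotic kinesin genes the RefSeq start lay within 200 bases of the gene start in the deposited table, whereas for *Kif4*, *Kif14* and *Kif2c* it lay 328, 1505 and 3867 bases away. A match describes the letters and was not tested as a binding site.

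**Figure D1:**
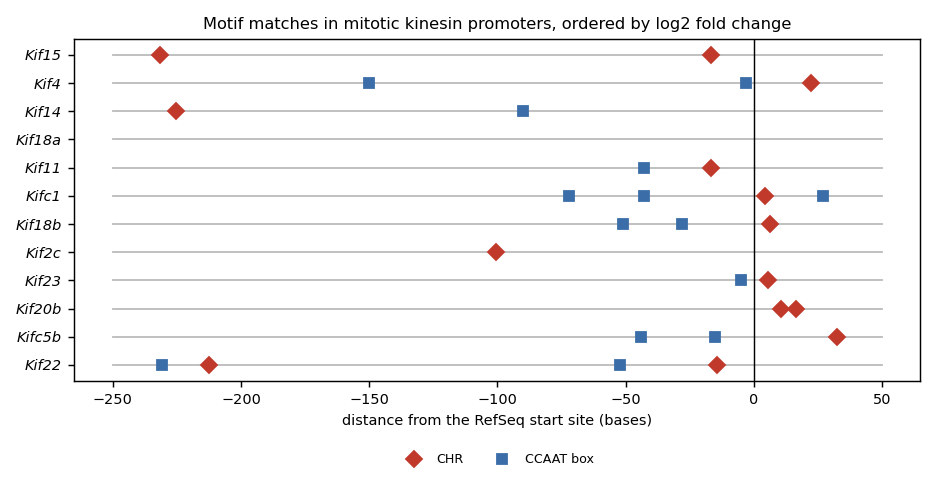
Position of CHR letters (red diamonds) and CCAAT letters (blue squares) in bases from the RefSeq start site, which is the vertical line, for 12 mitotic kinesin genes ordered from the highest log2 fold change at the top to the lowest at the bottom. CHR letters lie within 50 bases of the start in 9 of the 12 genes, and *Kif22* at the bottom has both motifs there or just upstream.

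The libraries of a genotype were unevenly spaced. Beyond counting noise, the coefficient of variation between Pa1F/F replicates 1 and 3 was 3.57% and that between Amh-pa1-/- replicates 1 and 2 was 2.39%, while every pair within a genotype that held Pa1F/F replicate 2 or Amh-pa1-/- replicate 3 differed by 18.8% to 20.7%. The Sertoli cell genes *Sox9*, *Wt1* and *Clu* were abundant in all 6 libraries, while the Sertoli cell genes *Rhox5* and *Trf* had at most 15.5 normalized counts in any library. *Zbtb16*, *Stra8*, *Piwil1*, *Ccna1*, *Acrv1* and *Tnp2*, which define stages of germ cells, had at most 3.15, while other genes of the germ cell lists, mainly *Uchl1* and *Hspa2*, were present at higher levels. A normalized count is a count divided by the effective library size (edgeR's TMM method) and multiplied by the mean effective size of the 6 libraries.

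Of the 61 genes, 51 had enough counts to be tested with edgeR's quasi-likelihood test. At a Benjamini-Hochberg adjusted p under 0.05 over all tested genes, 23 were higher and 5 were lower in Amh-pa1-/- cells, and 23 did not pass. Among all 14919 tested genes, 35.3% passed, 18.2% as higher and 17.1% as lower. With an additional absolute log2 fold change of at least 1, 9 of the 51 passed, as compared with 12.0% of all tested genes (5.44% higher and 6.56% lower). All 9 were higher: *Kif4*, *Kif11*, *Kif14*, *Kif15*, *Kif18a*, *Kif18b* and *Kifc1* among mitotic kinesins, the transport kinesin *Kif5c*, and *Tube1*, which encodes ε-tubulin. The groups did not overlap for 35 of the 51 genes and for 52.4% of all tested genes. Without Pa1F/F replicate 1, and likewise without replicate 3, 13 genes passed the adjusted p, of 52 and 51 tested, as compared with 22.7% and 23.0% of all tested genes, and only *Kif14* and *Kif15* passed the fold threshold. Without Amh-pa1-/- replicate 3, *Kif14* and *Kif15* were also the only genes of the 9 to pass it, and *Kif5a*, *Kif26a* and *Kif26b* passed it as lower (log2 fold changes of -1.12, -1.11 and -1.38). When each close pair was summed to a single library, which leaves 2 per genotype, 3 of 54 genes passed (*Kif3c*, *Tubb2b* and *Tubb4b*), as compared with 8.66% of all tested genes, and none reached the fold threshold.

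**Figure D2:**
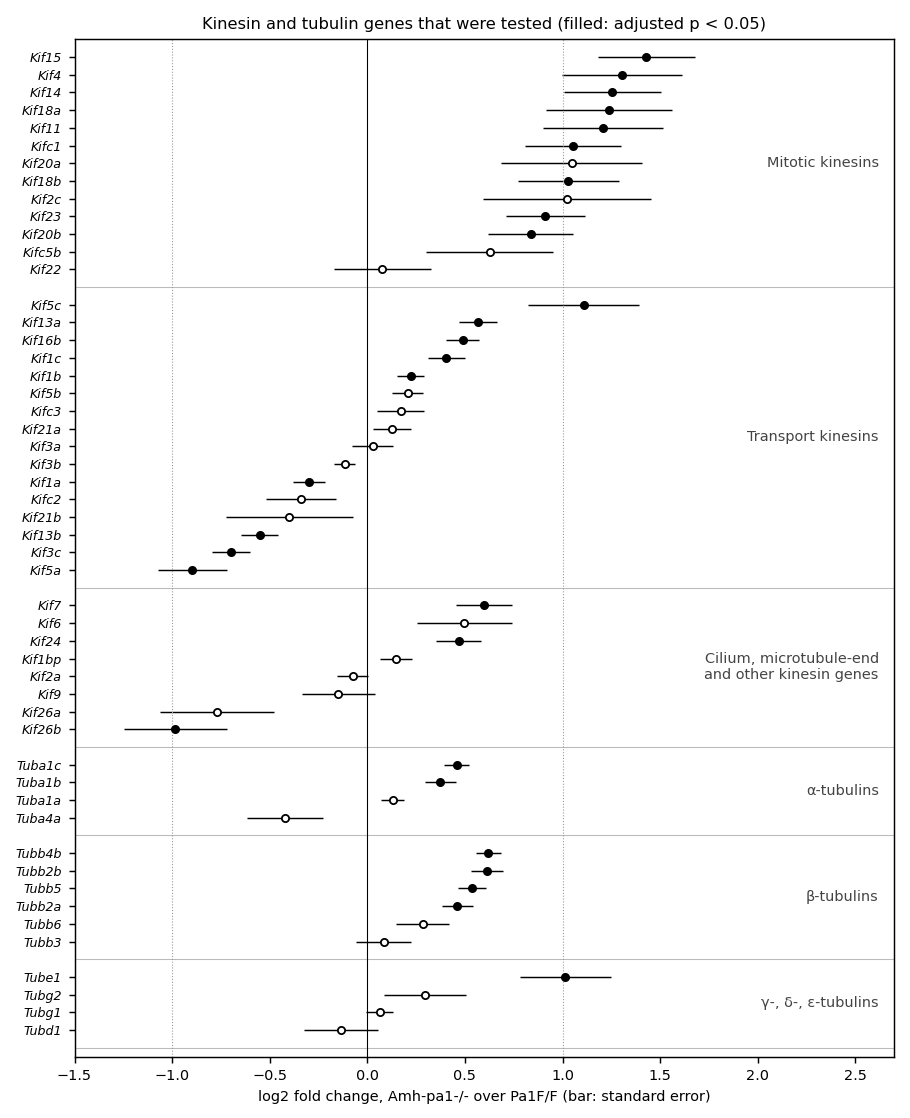
Log2 fold change of Amh-pa1-/- over Pa1F/F (horizontal axis, bars are standard errors) of the 51 tested kinesin and tubulin genes grouped by role, with filled points for an adjusted p under 0.05 and dotted lines at a log2 fold change of -1 and 1. All 13 mitotic kinesins lie right of 0, while transport kinesins spread from -0.90 for *Kif5a* to 1.11 for *Kif5c*.

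The mitotic kinesins as a group were more abundant in Amh-pa1-/- cells. Of 13 tested, 9 rose and none fell, against the 18.2% and 17.1% of all tested genes, and their median log2 fold change was 1.05, as compared with 0.00 over all tested genes. All 13 log2 fold changes were above 0, from 0.08 to 1.43, although that of *Kif22* turned negative under 3 of the alternatives. The groups did not overlap for 10 of the 13, and for 52.4% of all tested genes. Their summed level was 1.95-fold higher, 3481 ± 940.0 normalized counts in Pa1F/F (SD, n = 3) and 6797 ± 1994 in Amh-pa1-/- cells (SD, n = 3; exact two-sided permutation p = 0.1, the smallest that 3 against 3 libraries allow). The calls depended on the replicates used. Without Pa1F/F replicate 1, or without replicate 3, only *Kif14* and *Kif15* passed, and with each close pair summed no mitotic kinesin passed, while the median log2 fold changes kept their direction.

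Among the motors that hold the spindle bipolar, *Kif15* (chromosome 9, 122951046 to 123018733) had the highest log2 fold change of the 51 genes. It encodes a plus-end motor that works beside KIF11, and its normalized counts, given here and below in the order of the replicate numbers, were 135, 149 and 122 in Pa1F/F and 281, 299 and 514 in Amh-pa1-/- libraries. Its log2 fold change was 1.43 ± 0.25 (SE, adjusted p = 0.00558). *Kif11* (chromosome 19, 37376403 to 37421859), the motor that slides antiparallel spindle microtubules apart, had 282, 511 and 298 normalized counts in Pa1F/F and 659, 689 and 1169 in Amh-pa1-/- libraries, a log2 fold change of 1.21 ± 0.31 (SE, adjusted p = 0.0230). *Kifc1* (chromosome 17, 33875666 to 33890661), a minus-end motor that focuses spindle poles, had 282, 472 and 302 in Pa1F/F and 654, 609 and 929 in Amh-pa1-/- libraries (1.05 ± 0.24, adjusted p = 0.0161). For all of these genes the groups did not overlap, the highest Pa1F/F library was replicate 2 and the highest Amh-pa1-/- library was replicate 3. *Kifc5b*, a near-identical copy of *Kifc1* on the same chromosome, had a log2 fold change of 0.63 (adjusted p = 0.176), and reads shared by the copies make both counts uncertain.

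The genes of motors on chromosomes and microtubule ends followed the same order of libraries. *Kif4* (chromosome X, 100625737 to 100727214), a chromokinesin that acts in chromosome structure and at the midzone, had 176, 279.8 and 157 normalized counts in Pa1F/F and 407, 394 and 711 in Amh-pa1-/- libraries, with a log2 fold change of 1.30 ± 0.31 (SE, adjusted p = 0.0172). *Kif18a* (chromosome 2, 109280738 to 109341747), which dampens the movement of chromosomes at the metaphase plate, had 41.7, 76.5 and 62.9 in Pa1F/F and 97.6, 132 and 197 in Amh-pa1-/- libraries (1.24 ± 0.32, adjusted p = 0.0250). *Kif18b* (chromosome 11, 102905529 to 102925124), which shortens astral microtubules, had 109.6, 192 and 121 in Pa1F/F and 253, 242 and 366 in Amh-pa1-/- libraries (1.03 ± 0.26, adjusted p = 0.0218). None of these genes overlapped between the groups. *Kif2c*, whose product depolymerizes microtubules at kinetochores, did overlap, with 73.4, 188 and 97.5 in Pa1F/F and 179.6, 177 and 372 in Amh-pa1-/- libraries (log2 fold change 1.02, adjusted p = 0.109).

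*Kif22* stood apart from the other mitotic kinesins. It encodes a chromokinesin that pushes chromosome arms away from the poles, and its normalized counts were 399, 457 and 291 in Pa1F/F and 328, 335 and 546 in Amh-pa1-/- libraries. Amh-pa1-/- replicates 1 and 2 thus lay within the Pa1F/F range and only replicate 3 lay above it. The log2 fold change was 0.08 ± 0.25 (SE, adjusted p = 0.834), although the promoter printed above holds both CHR and CCAAT letters. The log2 fold change turned to -0.09 without Pa1F/F replicate 3, to -0.20 without Amh-pa1-/- replicate 3 and to -0.07 without both libraries that stand apart. Whether *Kif22* differed from the other mitotic kinesins was not tested.

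Of the genes that act in cytokinesis, *Kif14*, *Kif20b* and *Kif23* rose and *Kif20a* did not pass. *Kif23* (chromosome 9, 61915905 to 61946774), which forms centralspindlin with RACGAP1, was the most abundant mitotic kinesin gene per kilobase of transcript, with an RPKM (reads per kilobase of transcript, scaled to the effective library size) of 15.7 ± 3.62 in Pa1F/F and 29.6 ± 6.44 in Amh-pa1-/- cells (SD, n = 3 each). Its normalized counts were 669.6, 1000.2 and 703 in Pa1F/F and 1298, 1305 and 1862 in Amh-pa1-/- libraries, a log2 fold change of 0.91 ± 0.20 (SE, adjusted p = 0.0138). *Kif14* (chromosome 1, 136466343 to 136531511), a midbody motor that recruits citron kinase, had 101, 172 and 119 in Pa1F/F and 257, 282 and 396 in Amh-pa1-/- libraries (1.25 ± 0.25, adjusted p = 0.00905). *Kif20b*, which acts in the last steps of cytokinesis, also rose, with a log2 fold change of 0.84 (adjusted p = 0.0241). *Kif20a*, whose product brings the chromosomal passenger complex to the central spindle, had 215, 402 and 206 in Pa1F/F and 453, 411 and 836 in Amh-pa1-/- libraries, without overlap, but did not pass (log2 fold change 1.05, adjusted p = 0.0617). Reads from *Kif20a* and *Cdc23*, which overlaps it on the opposite strand, cannot be separated if the counting ignored strand, and the same holds for *Kif4* and *Pdzd11*.

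Across the group, Amh-pa1-/- replicate 3 was the highest of the 6 libraries for 13 of 13 mitotic kinesins, and Pa1F/F replicate 2 was the highest Pa1F/F library for 13 of 13. The median fold of Amh-pa1-/- replicate 3 over the mean of replicates 1 and 2 was 1.65, and that of Pa1F/F replicate 2 over the mean of replicates 1 and 3 was 1.62. Both were smaller than the median of 2.15 between the close pairs, Amh-pa1-/- replicates 1 and 2 over Pa1F/F replicates 1 and 3. Between the libraries that stand apart, Amh-pa1-/- replicate 3 over Pa1F/F replicate 2, the median was 1.98. With those libraries left out, a setting chosen after seeing the data, 12 of the 13 passed, and so did 55.3% of all 14960 genes tested. That fit takes its spread from the close pairs alone, and the labels do not say whether a close pair came from 1 preparation. Of the 16 transport kinesins tested, Amh-pa1-/- replicate 3 was the highest library for 6 and Pa1F/F replicate 2 the highest Pa1F/F library for 3.

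**Figure D3:**
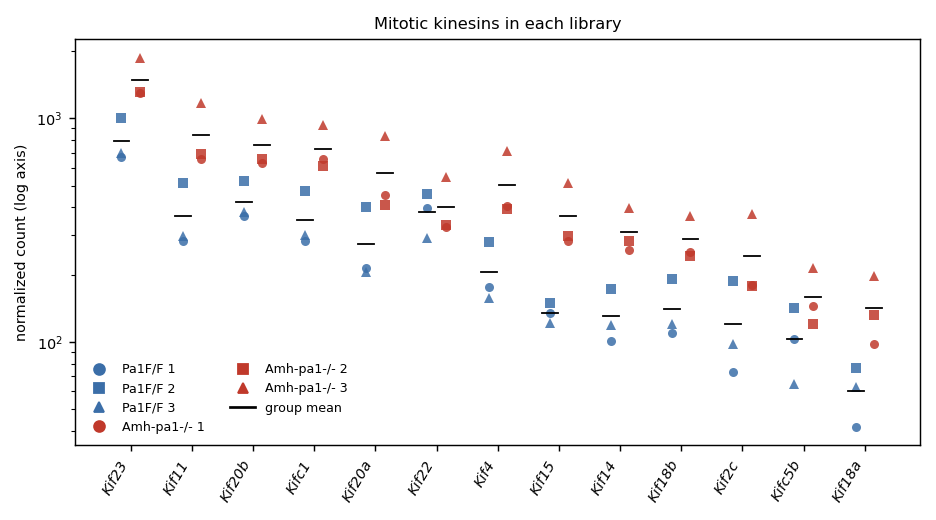
Normalized counts (log axis) of the 13 mitotic kinesins in each library, with Pa1F/F in blue, Amh-pa1-/- in red, a symbol for each replicate number and a line at each group mean. The red triangle (Amh-pa1-/- replicate 3) is the highest library and the blue square (Pa1F/F replicate 2) the highest Pa1F/F library for all 13 genes, and *Kif22* is the gene whose group means lie closest together.

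Of 22 listed genes whose products work with these motors in mitosis, all tested, 12 rose, 10 did not pass and none fell, against 18.2% and 17.1% of all tested genes. Their median log2 fold change was 0.98. Those past the fold threshold were *Mki67* (1.82), *Ttk* (1.65), *Top2a* (1.59), *Birc5* (1.37), *Aurkb* (1.33), *Bub1* (1.32), *Racgap1* (1.27), *Tpx2* (1.07) and *Nusap1* (1.05). *Racgap1*, the partner of *Kif23* in centralspindlin, had 437, 734 and 403 normalized counts in Pa1F/F and 949, 941 and 1895 in Amh-pa1-/- libraries. For 22 of 22, Amh-pa1-/- replicate 3 was the highest library and Pa1F/F replicate 2 the highest Pa1F/F library. Of the partners with a promoter entry, 14 of 19 held CHR letters and 17 of 19 CCAAT letters. This list is made of cell cycle genes, which share the course of the mitotic kinesins through the cycle, so it is not separate evidence.

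Genes of other cell types also differed between the genotypes, and their part in the mitotic kinesin result was not tested. The counts below stand beside 18.2% higher and 17.1% lower among all tested genes. Macrophage genes were lower for 6 of 8 tested (summed normalized counts 1860 to 2035 in Pa1F/F and 1120 to 1392 in Amh-pa1-/- libraries) and Leydig cell genes for 3 of 4 (12325 to 13714 and 2607 to 4897). Median log2 fold changes were -2.36 for macrophage and -1.79 for Leydig cell genes, and the macrophage sum fell less than its median, to 0.664-fold. Endothelial genes were higher for 1 and lower for 2 of 4 (1707 to 1793 and 939 to 1487). Of 6 peritubular myoid cell genes, *Acta2* rose and none fell, with sums of 3276 to 4186 and 12186 to 18676, most of them *Acta2*. Over the 6 genes, the median fold of Amh-pa1-/- replicate 3 over the mean of replicates 1 and 2 was 9.60, and that of these replicates over Pa1F/F replicates 1 and 3 was 0.415. Amh-pa1-/- replicate 3 was the highest library for 6 of 6 myoid genes and Pa1F/F replicate 2 the highest Pa1F/F library for 0 of 6. Of the tested germ cell genes, 3 of 5 for spermatogonia, 1 of 3 for spermatocytes and 0 of 1 for spermatids were lower, and none was higher. The spermatogonia list summed to 2854 to 3278 in Pa1F/F and 1664 to 2967 in Amh-pa1-/- libraries, the spermatocyte list to 587 to 726 and 400.2 to 574, and the spermatid list to 104 to 117 and 98.0 to 116. For the tested spermatogonia genes the median log2 fold change was -1.57, with a range of -1.92 to 2.09. Of 12 Sertoli cell genes, 4 were lower (*Gata4*, *Inha*, *Clu* and *Aard*) and none was higher, and the summed level of the list was lower without overlap (299929 to 316030.0 and 188497 to 251231).

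Transport kinesins moved in both directions, and their median log2 fold change was 0.08. Of 16 tested, 5 rose (*Kif1b*, *Kif1c*, *Kif5c*, *Kif13a* and *Kif16b*) and 4 fell (*Kif1a*, *Kif3c*, *Kif5a* and *Kif13b*), as compared with 18.2% and 17.1% of all tested genes. *Kif17* had too few counts to be tested. Without any 1 of the 3 Pa1F/F replicates, 5 of these 9 still passed (*Kif3c*, *Kif5a*, *Kif13a*, *Kif13b* and *Kif16b*), and with each close pair summed only *Kif3c* passed. Among all tested genes, 22.7%, 29.1% and 23.0% passed without Pa1F/F replicates 1, 2 and 3, and 8.66% with close pairs summed. Without Pa1F/F replicate 2 or Amh-pa1-/- replicate 3, the transport median lay at -0.04 and -0.06.

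The 3 kinesin-1 heavy chains, which carry organelles towards microtubule plus ends, were not called alike, and they were not tested against each other. *Kif5b*, the ubiquitous form, had 7885, 7756 and 8060.0 normalized counts in Pa1F/F and 9630.4, 9509 and 8197 in Amh-pa1-/- libraries, without overlap but short of the threshold (log2 fold change 0.21 ± 0.08, SE, adjusted p = 0.0819). *Kif5c* (chromosome 2, 49619298 to 49774778), described best in neurons, had 517, 537 and 499 in Pa1F/F and 818, 833 and 1696 in Amh-pa1-/- libraries, so that replicate 3 was far above replicates 1 and 2, which in turn were above all Pa1F/F libraries (1.11 ± 0.29, adjusted p = 0.0234). *Kif5a*, likewise described best in neurons, had 227, 212 and 228 in Pa1F/F and 104, 100.3 and 153 in Amh-pa1-/- libraries, again without overlap (-0.90 ± 0.18, adjusted p = 0.00932). *Kif5c* lost its call without Pa1F/F replicate 1, 2 or 3 (adjusted p = 0.0761, 0.0590 and 0.0792), and *Kif5b* passed without Amh-pa1-/- replicate 3 (adjusted p = 0.00176).

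Per kilobase of transcript, *Kif5b* made up 91.1% ± 0.226 of kinesin-1 heavy chain reads in Pa1F/F and 88.7% ± 5.14 in Amh-pa1-/- cells (SD, n = 3 each). The share of *Kif5a* was 3.63% ± 0.101 and 1.65% ± 0.464, and that of *Kif5c* 5.25% ± 0.282 and 9.64% ± 4.68 (SD, n = 3 each), the last with 6.84% and 7.04% in replicates 1 and 2 and more than either in replicate 3. For *Kif5a* and *Kif5c* the shares did not overlap (exact two-sided permutation p = 0.1 each, the smallest possible). These shares and those of *Kif13a* were chosen after the values were seen.

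*Kif13a* and *Kif13b*, closely related kinesin-3 motors, went opposite ways. *Kif13a*, which moves recycling endosomes, had 594, 558 and 651 normalized counts in Pa1F/F and 928, 953 and 789.6 in Amh-pa1-/- libraries (log2 fold change 0.57 ± 0.10, SE, adjusted p = 0.00569). *Kif13b* had 849, 716 and 899.9 in Pa1F/F and 552, 562 and 566 in Amh-pa1-/- libraries (-0.55 ± 0.10, adjusted p = 0.00548). Neither gene overlapped between the groups. Their sum per kilobase was an RPKM of 15.8 ± 1.59 in Pa1F/F and 15.4 ± 0.802 in Amh-pa1-/- cells (SD, n = 3 each), while the share of *Kif13a* went from 36.9% ± 1.30 to 55.8% ± 2.73 (SD, n = 3 each, exact two-sided permutation p = 0.1, the smallest possible).

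Of the other kinesin-3 genes, *Kif1c* had 2448, 2458 and 2548 normalized counts in Pa1F/F and 3481, 3587 and 2805 in Amh-pa1-/- libraries (log2 fold change 0.41, adjusted p = 0.0175). *Kif1b* had 2908, 2522 and 2921 in Pa1F/F and 3210.5, 3265 and 3268 in Amh-pa1-/- libraries (0.22, adjusted p = 0.0436). Neither overlapped, but both calls were lost without Amh-pa1-/- replicate 1 or 2 or any of the Pa1F/F replicates (adjusted p from 0.0501 to 0.0665 for *Kif1c* and from 0.0713 to 0.0960 for *Kif1b*). With all 6 libraries kept, *Kif1b* also missed the threshold with DESeq2's size factors (adjusted p = 0.0520) or Wald test (0.0587), with at least 10 counts in every library (0.0516) and with the replicate block (0.0911). *Kif16b*, whose product binds early endosomes, rose by 0.49 and *Kif1a*, a motor of synaptic vesicle precursors in neurons, fell by 0.30 on the log2 scale, with the *Kif1a* call lost without any replicate but Amh-pa1-/- replicate 3. The *Kif1a* call was also lost with no filter beyond 1 count in total (adjusted p = 0.0689).

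Heterotrimeric kinesin-2, the motor that carries cargo to the tip of cilia, pairs *Kif3a* with *Kif3b* or *Kif3c* and binds the accessory subunit *Kifap3*. *Kif3b* had 1953, 1965 and 2059 normalized counts in Pa1F/F and 1766, 1929 and 1821 in Amh-pa1-/- libraries (log2 fold change -0.12, adjusted p = 0.140), and *Kif3a* stood at 0.03 (adjusted p = 0.865). *Kif3c* fell, with 480.3, 494 and 522 in Pa1F/F and 322, 327 and 273 in Amh-pa1-/- libraries (-0.70 ± 0.10, SE, adjusted p = 0.00255). *Kifap3* rose by 0.48 (adjusted p = 0.00207). *Kif21a*, the fifth most abundant transport kinesin gene by normalized count, had 1442, 1570.5 and 1459.9 in Pa1F/F and 1445, 1579 and 1854 in Amh-pa1-/- libraries, and its ranges overlapped (0.13, adjusted p = 0.352).

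**Figure D4:**
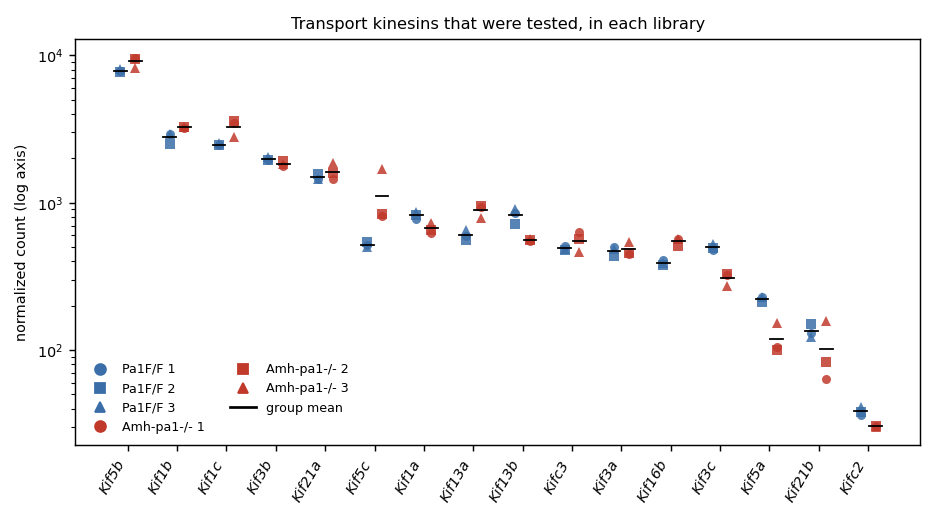
Normalized counts (log axis) of the 16 tested transport kinesins in each library, with Pa1F/F in blue, Amh-pa1-/- in red, a symbol for each replicate number and a line at each group mean. *Kif5c* and *Kif13a* lie higher and *Kif5a*, *Kif3c* and *Kif13b* lower in all 3 Amh-pa1-/- libraries, and *Kif5c* has 1696 in Amh-pa1-/- replicate 3.

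Among kinesins of cilia, microtubule ends and further roles, 2 of 8 tested rose and 1 fell, near the 18.2% and 17.1% of all tested genes. *Kif7*, a ciliary regulator of Hedgehog signalling, rose by 0.60 (adjusted p = 0.0188) and *Kif24*, which acts at the mother centriole, rose by 0.47 (adjusted p = 0.0211). *Kif7* shares 51 bases with *Ticrr* on the opposite strand, which itself had a log2 fold change of 1.15. *Kif26b*, an atypical kinesin, had 394, 383 and 387 normalized counts in Pa1F/F and 143, 155 and 291 in Amh-pa1-/- libraries, without overlap (-0.98 ± 0.26, SE, adjusted p = 0.0271), and its relative *Kif26a* did not pass (-0.77, adjusted p = 0.0819). *Kif2a*, a microtubule depolymerase of non-dividing and dividing cells, had 1327, 1099 and 1218 in Pa1F/F and 1153, 1161 and 1142 in Amh-pa1-/- libraries, within the Pa1F/F range (-0.08, adjusted p = 0.479). The calls of *Kif24* and *Kif26b* were lost without any replicate but Amh-pa1-/- replicate 3, and that of *Kif7* without Pa1F/F replicate 1 or 2. The *Kif24* call was also lost with the replicate block (adjusted p = 0.0639).

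Tubulin transcripts were more abundant in Amh-pa1-/- cells. Of 14 tested tubulin genes, 7 rose and none fell, against 18.2% and 17.1% of all tested genes, with a median log2 fold change of 0.33. Only *Tube1* reached the fold threshold. Summed per kilobase, β-tubulin genes stood at an RPKM of 755 ± 20.3 in Pa1F/F and 1038 ± 14.3 in Amh-pa1-/- cells, and α-tubulin genes at 554 ± 9.32 and 648 ± 10.5 (SD, n = 3 each). Neither sum overlapped between the groups (exact two-sided permutation p = 0.1 each, the smallest possible). With each close pair summed, *Tubb2b* and *Tubb4b* passed.

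Of the β-tubulins, *Tubb5* was the most abundant per kilobase in every library. Its normalized counts were 13450.0, 14576 and 13031 in Pa1F/F and 19834, 19585 and 20065 in Amh-pa1-/- libraries (log2 fold change 0.53 ± 0.07, SE, adjusted p = 0.00226). *Tubb4b*, a form found in most tissues and in cilia, had 4107, 4279 and 3963 in Pa1F/F and 6326, 5950.4 and 6695 in Amh-pa1-/- libraries (0.62 ± 0.07, adjusted p = 0.000888). All Amh-pa1-/- libraries were above all Pa1F/F libraries for both genes, and replicate 3 did not stand apart as it did for the mitotic kinesins. *Tubb2a* had 919, 932 and 1023 in Pa1F/F and 1423, 1316 and 1218 in Amh-pa1-/- libraries (0.46, adjusted p = 0.00517). Its neighbour *Tubb2b*, 48.7 kb away on chromosome 13, rose by 0.61 (adjusted p = 0.00211). *Tubb6* had 1489.7, 1601 and 1394 in Pa1F/F and 1686, 1552 and 2222 in Amh-pa1-/- libraries, and its groups overlapped (0.28, adjusted p = 0.149).

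*Tubb3*, known best as the neuronal β-tubulin and also made by Sertoli cells, did not pass. It had 7986, 6861 and 7574 normalized counts in Pa1F/F and 8728, 8788 and 6255 in Amh-pa1-/- libraries, so replicates 1 and 2 were above and replicate 3 below all Pa1F/F libraries (log2 fold change 0.08 ± 0.14, SE, adjusted p = 0.675). Without Amh-pa1-/- replicate 3 it passed (adjusted p = 0.0285). Its share of β-tubulin transcripts per kilobase was 22.3%, 18.8% and 21.9% in Pa1F/F and 17.6%, 18.1% and 12.9% in Amh-pa1-/- libraries. The shares did not overlap, and their means of 21.0% ± 1.93 and 16.2% ± 2.90 (SD, n = 3 each) gave a difference of -4.84 percentage points (exact two-sided permutation p = 0.1, the smallest possible). Without Amh-pa1-/- replicate 3 the difference was -3.17 percentage points. *Tubb4b* went the other way, from 23.2% ± 0.296 to 25.9% ± 1.51 of β-tubulin transcripts (SD, n = 3 each).

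**Figure D5:**
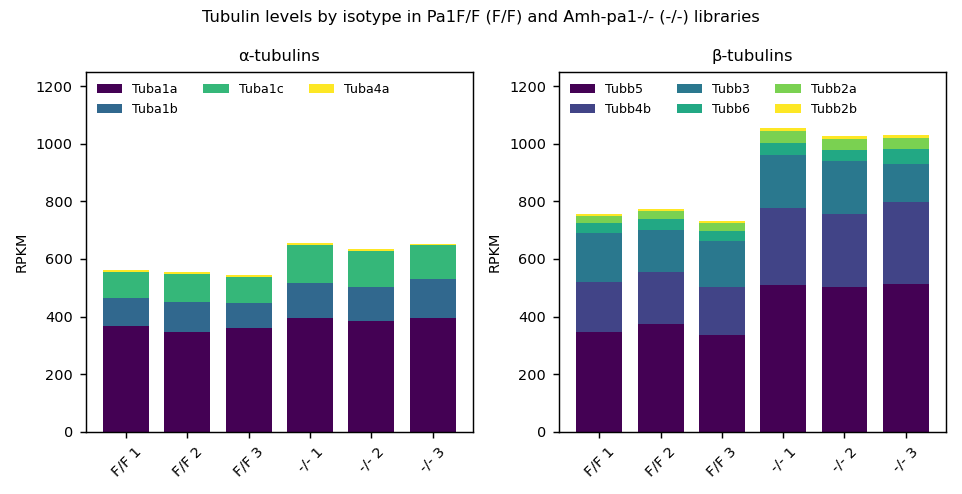
Stacked levels of α-tubulin genes (left) and β-tubulin genes (right) in each library in RPKM (reads per kilobase of transcript, scaled to the effective library size), with Pa1F/F as F/F and Amh-pa1-/- as -/- and the replicate number after it. The β-tubulin bars reach 734 to 774 in Pa1F/F and 1028 to 1054 in Amh-pa1-/- libraries, while the *Tubb3* segment is smallest in Amh-pa1-/- replicate 3.

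Of the α-tubulins, *Tuba1a* was the most abundant per kilobase, with 9800.0, 9214 and 9542 normalized counts in Pa1F/F and 10484, 10216 and 10538 in Amh-pa1-/- libraries, which did not overlap but did not pass (log2 fold change 0.13 ± 0.06, SE, adjusted p = 0.131). *Tuba1b* had 4740.1, 5176 and 4430.1 in Pa1F/F and 6058, 5879 and 6642 in Amh-pa1-/- libraries (0.37 ± 0.08, adjusted p = 0.0121). That call was lost without Pa1F/F replicate 3 (adjusted p = 0.0505) and with the replicate block (0.0528). *Tuba1c* had 3002, 3185 and 2943 in Pa1F/F and 4408, 4220.1 and 3904 in Amh-pa1-/- libraries (0.46 ± 0.06, adjusted p = 0.00265). These 3 genes lie side by side on chromosome 15, with gaps of 15.3 kb and 76.3 kb, and *Tuba1a*, the middle gene, was the one that did not pass. *Tuba4a*, the other α-tubulin gene tested, had 372, 480.2 and 347 normalized counts in Pa1F/F and 348, 322 and 225 in Amh-pa1-/- libraries, with overlap (-0.42, adjusted p = 0.138), and its share of α-tubulin transcripts per kilobase was 1.42% ± 0.242 and 0.905% ± 0.198 (SD, n = 3 each), without overlap. Coding sequences of α- and of β-tubulin genes are close to each other, so reads they share make the split between isotypes uncertain. *Tuba8* was not tested and had 9.06, 8.71 and 7.34 normalized counts in Pa1F/F and 1.95, 3.38 and 0 in Amh-pa1-/- libraries.

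The tubulins of centrioles and nucleation sites were scarce beside α- and β-tubulins. *Tube1* (chromosome 10, 39133976 to 39152542), which encodes the ε-tubulin of centriolar triplet microtubules, had 55.3, 61.0 and 53.5 normalized counts in Pa1F/F and 98.6, 91.3 and 153 in Amh-pa1-/- libraries, without overlap (log2 fold change 1.01 ± 0.23, SE, adjusted p = 0.0153). It did not pass without Pa1F/F replicate 1 or 3 (adjusted p = 0.0584 without replicate 1). *Tubg1*, the γ-tubulin that nucleates microtubules, had 469, 439.6 and 452 in Pa1F/F and 474, 473 and 474 in Amh-pa1-/- libraries (0.06, adjusted p = 0.519). *Tubg2* and *Tubd1* did not pass either. Of the 10 partners of γ-tubulin in the ring complex and its anchors, 5 rose (*Tubgcp2*, *Tubgcp3*, *Nedd1*, *Mzt1* and *Cdk5rap2*) and none fell, against 18.2% and 17.1% of all tested genes, with a median of 0.26.

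The other parts of the transport machinery did not move as a block, and the counts below stand against 18.2% higher and 17.1% lower among all tested genes. Of 10 kinesin light chains and adaptors tested, *Kifap3* and *Trak2* rose and *Klc4*, *Mapk8ip3*, *Spag9* and *Trak1* fell (median -0.13). *Trak1* and *Trak2* encode adaptors that link kinesin-1 to mitochondria, and they changed in opposite directions by -0.26 and 0.38. Of 24 dynein and dynactin genes, 9 rose and 2 fell (median 0.08), and of 5 genes of the intraflagellar transport dynein, which returns cargo from the ciliary tip, none rose and 2 fell (median -0.32). Of 27 genes that fold or modify tubulin, 3 rose and 5 fell (median 0.04), with *Ttll13*, a tubulin polyglutamylase gene with low counts, past the fold threshold at -1.05.

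Of 25 microtubule-associated protein genes, 6 rose and 5 fell (median 0.04), near the shares of all tested genes, and 3 were past the fold threshold, which 12.0% of all tested genes passed. *Map2*, which stabilizes microtubules and is described best in dendrites, had 578, 488 and 565 normalized counts in Pa1F/F and 2184, 2226 and 1903 in Amh-pa1-/- libraries (log2 fold change 1.95 ± 0.09, SE). *Mapre2*, an end-binding protein gene, had 928, 823 and 910.4 in Pa1F/F and 1984, 1912 and 1895 in Amh-pa1-/- libraries (1.12 ± 0.06). For both, the Amh-pa1-/- libraries lay close together and far above Pa1F/F. *Stmn1*, which encodes a protein that sequesters tubulin dimers and is abundant in dividing cells, had 574.5, 821 and 577 in Pa1F/F and 1109, 1109.7 and 1884 in Amh-pa1-/- libraries (1.06 ± 0.25), with Pa1F/F replicate 2 and Amh-pa1-/- replicate 3 highest in their groups, as for the mitotic kinesins.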

How the data were processed

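RNA-seq libraries of isolated Sertoli cells, 3 Pa1F/F and 3 Amh-pa1-/-, were grouped by the genotype in their labels. The authors aligned reads to GRCm38 and deposited raw read counts per gene without normalization. Per the submitters' processing notes, HISAT2 2.1.0 and HTSeq 0.6.0 were used. The strand setting of the counting is not given in the sources used here, so overlapping genes on opposite strands are uncertain. The deposited table also holds the authors' own comparison (mean level, ratio, log2 ratio, p-value and adjusted p-value), which was not used. *Pa1* itself was not analysed here, so genotypes rest on the labels.

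Totals per library were 13203757 to 16231443 counts. Reads without molecular identifiers are not independent molecules. The standard errors and p-values take in the spread between libraries as well as counting error. Genes were filtered with edgeR 4.0.16 (filterByExpr by group, minimum count 10, minimum total 15), scaled by TMM factors and compared by the quasi-likelihood F-test in R 4.3.3, adjusting p-values by Benjamini-Hochberg over 14919 genes. Values and shares per library were compared with an exact permutation test. RPKM values used the length of the canonical transcript in GENCODE M39, matched by gene ID, a choice made after other lengths had been seen. Promoters were taken from RefSeq (GRCm38.p6) and matched by symbol. Figures were drawn with Python 3.11.15. The test was tried on simulated counts of 14640 genes. It found 95.5% of 200 genes simulated with a log2 fold change of 2, and 3.54% of its calls were false. A call in this trial needed both the adjusted p under 0.05 and the fold threshold. The simulated libraries were independent and held no close pairs, so the trial does not measure the error of the calls in these data.

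Members and lists were chosen with earlier results of these data known. Any member may be named. Members with an adjusted p under 0.05 and a log2 fold change of 1 or more in either direction, and members that averaged 1000 or more normalized counts, were given in full. Partners past both thresholds were named. Other values shown per library were chosen after they were seen. Alternatives were limma-voom (limma 3.58.1), the Wald test and the size factors of DESeq2 1.42.0, scaling by library size, other filters, a replicate block, summed close pairs and leaving out each replicate. Leaving out both libraries that stand apart was added after seeing the data.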

Additional observations from a re-analysis of the deposited data

How the results depend on the processing

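Of the 51 tested genes, only *Kif22*, *Kif3a* and *Tubd1*, none of which passed, changed direction under any alternative run. Over the genes reported in full, 301 comparisons kept their side of the threshold, 50 lost it and 9 gained it. Limma-voom, both DESeq2 settings, scaling by library size and both other filters left every count of calls within 1.5 times its value. DESeq2's Wald test gave 11 mitotic kinesins, beside 34.7% of all tested genes. With close replicate pairs summed, 3 members, 0 past the fold threshold, 0 mitotic kinesins, 1 transport kinesin and 2 tubulins passed. Leaving out each replicate in turn, with 22.7% to 43.1% of all tested genes past the threshold, gave 13 to 34 members, 2 to 12 past the fold threshold, 2 to 11 mitotic kinesins, 5 to 12 transport kinesins, and a transport median of -0.0642 to 0.0835. With close pairs only, chosen after seeing the data, 11 tubulins passed, beside 55.3% of all tested genes, and the transport median was -0.12. The causes were not tested.

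Deviations of same-numbered libraries from their group means correlated at 0.108, -0.164 and -0.179, so no pairing by replicate number was seen. These deviations are shaped by Pa1F/F replicate 2 and Amh-pa1-/- replicate 3, which stand apart, so they cannot exclude a pairing. With the replicate block, 25 members passed, 20 of them higher and 5 lower, and 9 mitotic kinesins, beside 25.5% of all tested genes. At 3 libraries per genotype an exact permutation test of a single value cannot go below 0.1.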
